A study of Arabidopsis thaliana with 12 samples.

Results

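AGAMOUS (AG, AT4G18960), SHATTERPROOF1 (SHP1, AT3G58780), SHATTERPROOF2 (SHP2, AT2G42830) and SEEDSTICK (STK, AT4G09960) are the 4 genes of the AG clade of plant MADS-domain transcription factors. They were chosen by this membership, and they are 4 of 37899 genes annotated on chromosomes 1 to 5 of Arabidopsis thaliana. All 4 had enough reads to be among the 32062 genes tested. AG specifies stamens and carpels and ends the growth of the floral meristem. SHP1 and SHP2 are closely related, act redundantly at the valve margin of the fruit, where the pod opens, and share the control of ovule identity with STK. STK is also needed for the detachment of seeds.

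These floral genes are kept silent in leaves by Polycomb repression. Polycomb repressive complex 2 trimethylates lysine 27 of histone H3 (H3K27me3), and CURLY LEAF (CLF) is one of its methyltransferases, in part redundant with SWINGER (SWN). BRAHMA (BRM) is a SWI2/SNF2 chromatin remodelling ATPase of the trithorax group, a class of proteins that opposes Polycomb. The comparisons ask how the mark at the clade depends on each protein.

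H3K27me3 ChIP-seq was made from seedlings that were 14 days old, grown at 22 °C in 16 h of light and 8 h of dark. The genotypes were brm-1 (SALK_030046, a null T-DNA allele of BRM), clf-29 (SALK_021003, a T-DNA allele of CLF), the double mutant brm-1 clf-29, and wild-type Col, the background of all of the mutants. Each genotype had 2 ChIP libraries, described in the study as independent biological samples, and 1 input library. Where samples of 1 genotype share a source that the labels do not give, the p-values below measure only the spread between these libraries. Whole seedlings were used, so the mark in different cell types is averaged, and fewer cells that carry it cannot be told apart from less of it per cell.

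The ChIP libraries held 3901085 to 7277025 deposited reads, of which 2112103 to 3654258 remained after 1 read was kept per position and strand. Levels are given in RPM (the reads of a feature scaled to the kept reads of its library), or in RPM per kb of gene. This scale describes how the mark is distributed within a library and not its total amount. One property of the libraries bears on every comparison with Col. The median gene outside all enriched regions had 0.880 to 1.45 RPM per kb in the 6 mutant libraries and 2.99 and 3.07 RPM per kb in the Col libraries. In both BRM and CLF, the stretches without reads in the libraries labelled with the insertion were no longer than those found the other way round, so the reads do not check the labels.

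All 4 genes are in TAIR10 coordinates. AG spans chr4:10382856-10388539 on the plus strand, with 9 exons and a second intron of 2999 bp. SHP1 spans chr3:21738160-21742517 on the plus strand, with 8 exons and a second intron of 1298 bp. SHP2 spans chr2:17820114-17824013 on the plus strand, with 7 exons and a second intron of 2056 bp. STK spans chr4:6236375-6241281 on the minus strand, with 8 exons and long first and second introns of 1328 and 1577 bp. Despite the similarity of these genes, every stretch of 51 bp, the read length, in each of them occurs once in the genome (100% of the stretches of each gene). Reads were counted without strand, so the 447 bp in which GAUT15 overlaps SHP1, the 186 bp in which AT4G09950 overlaps STK, and a non-coding antisense gene in each of SHP1 and SHP2 share reads with the members.

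The sequences below come from the RefSeq TAIR10.1 assembly and show where the mark was densest in Col and where it was lost without CLF. They are printed 5′ to 3′ on the strand of the gene. Capitals mark the telobox AAACCCTA and the motif GAGAGA, searched on both strands with overlaps counted. Both are known as motifs of Polycomb response elements in Arabidopsis. The first is the window of 300 bp, within 2000 bp upstream of AG, with the largest difference between Col and clf-29, and it was chosen by those values. It begins 1282 bp and ends 983 bp upstream of the transcript start.
AG upstream, chr4:10381574-10381873, plus strand: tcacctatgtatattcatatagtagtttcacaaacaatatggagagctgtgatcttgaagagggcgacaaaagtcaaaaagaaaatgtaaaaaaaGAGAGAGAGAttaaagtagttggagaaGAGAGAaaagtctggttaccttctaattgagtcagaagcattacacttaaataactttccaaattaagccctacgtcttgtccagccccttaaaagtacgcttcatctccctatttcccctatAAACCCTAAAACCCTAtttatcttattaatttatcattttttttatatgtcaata
AG intron 1, chr4:10383690-10383911, plus strand: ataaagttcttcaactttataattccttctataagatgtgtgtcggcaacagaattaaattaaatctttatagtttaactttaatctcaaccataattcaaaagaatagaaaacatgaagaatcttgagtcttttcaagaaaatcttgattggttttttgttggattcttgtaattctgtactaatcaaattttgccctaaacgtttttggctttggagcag
SHP1 intron 1, chr3:21739064-21739093, plus strand: attagcctTCTCTCTCTCTCTCtagatatc
SHP2 intron 2, chr2:17820905-17821204, plus strand: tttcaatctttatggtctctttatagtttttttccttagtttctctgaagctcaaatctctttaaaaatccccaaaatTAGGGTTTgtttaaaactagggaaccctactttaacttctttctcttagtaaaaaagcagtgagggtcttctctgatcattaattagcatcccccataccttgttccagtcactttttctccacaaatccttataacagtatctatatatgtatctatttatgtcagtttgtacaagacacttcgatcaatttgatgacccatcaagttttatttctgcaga
STK intron 1, chr4:6240243-6240272, minus strand: tggttttgTCTCTCTCttctttctgtgtaa

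The last 4 stretches lie in the window of 300 bp with the most Col reads of each gene, which is shown whole for SHP2 and in part for the others. Element names follow the representative transcript of each gene. These windows lay between 630 and 834 bp downstream of the transcript start at their 5′ end, over intron 1 of AG, SHP1 and STK and over the start of intron 2 of SHP2. The telobox was found 1 time in the SHP2 window and 2 times, directly side by side, in the upstream window of AG. It was not in the densest windows of the other members or in any of the 4 promoters (250 bp before to 50 bp after the transcript start). Of all 300 bp windows of the genome 3.87% hold a telobox, as do 6.22% of promoters of protein-coding genes. GAGAGA, present in 24.3% of genome windows, was found 5 times in the SHP1 window, 4 times in the STK window and 4 times in the AG upstream window, but not in the densest windows of AG and SHP2. It was found 1 time in each of the promoters of AG, SHP1 and SHP2 and not in that of STK (29.2% of promoters hold it). Also searched were CCANTG, on both strands, which was found 1 time in the SHP1 window and 2 times in the STK promoter (32.1% of genome windows and 25.7% of promoters hold it), and the CArG box, the site bound by MADS-domain proteins, which had no match in any of these windows or promoters (1.85% and 3.05%).

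All 4 genes were marked in every library. In RPM per kb, AG had 61.9 and 75.3 in brm-1, 34.3 and 44.4 in clf-29, 34.1 and 44.0 in brm-1 clf-29, and 57.4 and 53.5 in Col. The libraries with clf-29 were all below those without it. SHP1 had 42.3 and 47.1 in brm-1, 35.7 and 45.7 in clf-29, 37.4 and 38.6 in brm-1 clf-29, and 33.8 and 35.9 in Col. Only the brm-1 and brm-1 clf-29 values were clear of both Col values. SHP2 had 41.4 and 45.6 in brm-1, 29.02 and 34.1 in clf-29, 35.8 and 33.8 in brm-1 clf-29, and 34.5 and 34.6 in Col. For SHP2 only brm-1 stood above all of the other libraries. STK had 53.2 and 62.8 in brm-1, 50.6 and 59.2 in clf-29, 41.4 and 51.5 in brm-1 clf-29, and 50.9 and 52.0 in Col, and the mutant libraries other than brm-1 overlapped Col. The inputs had 7.65 to 10.5 RPM per kb at these genes.

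**Figure D1:**
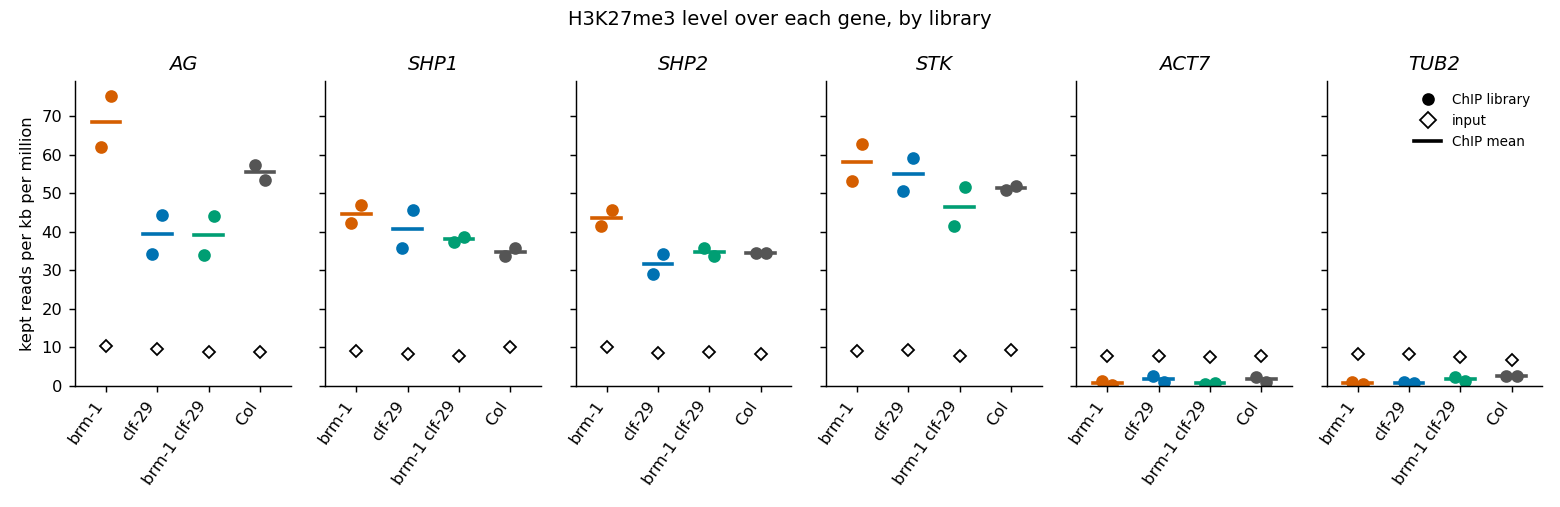
H3K27me3 level of AG, SHP1, SHP2 and STK in RPM per kb, one panel per gene, with the unmarked genes ACT7 and TUB2 beside them. Points are single ChIP libraries (2 per genotype), lines are ChIP means, and open diamonds are the inputs. AG sits at 34.1 to 44.4 RPM per kb in the 4 libraries with clf-29 and at 53.5 to 75.3 in the 4 without it, whereas the genotypes lie closer together at SHP1, SHP2 and STK.

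In Col the order of the levels was AG, STK, SHP1, SHP2, with means of 55.5 ± 2.75, 51.4 ± 0.743, 34.8 ± 1.47 and 34.5 ± 0.0269 RPM per kb (SD, n = 2). SHP1 and SHP2 did not differ beyond their spread. AG was above 94.3% and STK above 91.3% of the 8746 genes that overlapped a Col region, which placed both among the most densely marked genes of the seedling. In clf-29, AG was above only 58.3% of the 8167 genes marked there, and STK, with 54.9 ± 6.11 RPM per kb, was the most densely marked of the clade. STK also led in brm-1 clf-29, with 46.4 ± 7.20 RPM per kb beside 39.1 ± 7.06 for AG, but the ranges of these genes overlapped. In brm-1, AG led with 68.6 ± 9.53 RPM per kb and was above 94.5% of marked genes.

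Relative to the input of the same genotype, AG was enriched 6.56 ± 0.911-fold in brm-1, 4.09 ± 0.738-fold in clf-29, 4.45 ± 0.804-fold in brm-1 clf-29 and 6.27 ± 0.311-fold in Col (SD over 2 ChIP libraries and 1 input). SHP1 was enriched 4.91 ± 0.374-fold in brm-1, 4.97 ± 0.867-fold in clf-29, 4.97 ± 0.108-fold in brm-1 clf-29 and 3.46 ± 0.147-fold in Col. Part of this gap lies in the inputs, which have no replicate. At SHP1 they had 9.10 RPM per kb in brm-1, 8.19 in clf-29, 7.65 in brm-1 clf-29 and 10.1 in Col. SHP2 was enriched 4.28-fold in brm-1, 3.69-fold in clf-29, 3.96-fold in brm-1 clf-29 and 4.12-fold in Col. For STK the values were 6.38-fold in brm-1, 5.96-fold in clf-29, 5.89-fold in brm-1 clf-29 and 5.50-fold in Col. For comparison, ACT7 and TUB2, the actin and tubulin genes used as unmarked controls, had mean ratios of 0.0865 to 0.235 in the mutants and 0.220 and 0.371 in Col.

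On the RPM scale, AG was the 1 member of the clade called over the whole gene in clf-29. It was lower by a log2 change of -0.50 ± 0.11 (SE, limma, adjusted p = 8.22e-04) relative to Col. In brm-1 clf-29 it was lower by almost the same amount (-0.52 ± 0.11, adjusted p = 5.92e-04). Among all tested genes, 41.1% were called lower and 14.1% higher in clf-29 than in Col, and 47.6% and 15.0% in brm-1 clf-29, with median changes of -0.74 and -0.82. Over the 10337 genes that overlapped a region of any genotype, the median change was 0.26 in clf-29 and 0.30 in brm-1 clf-29 relative to Col. The lower level of AG rests on the scaling of the libraries: with scaling on genes outside all regions the change was 0.50 in clf-29 and 0.59 in brm-1 clf-29, with median-of-ratios factors it was 0.27 and 0.34, and with the TMM method over all tested genes -0.20 and -0.12, none of them called. Scaling on genes outside all regions moved the median of all tested genes by 0.84 in clf-29, 0.91 in brm-1 and 0.91 in brm-1 clf-29 relative to Col, and scaling by TMM over the genes marked in Col moved it by -0.30 in clf-29, -0.21 in brm-1 and -0.29 in brm-1 clf-29. The genes called in clf-29 relative to Col were 4516 higher and 13163 lower as reported, 3013 and 20379 with the genes marked in Col, and 8350 and 868 with the genes outside all regions. For brm-1 clf-29 relative to Col the same counts were 4801 and 15267, 3198 and 21061, and 9346 and 952. SHP1 (0.21 ± 0.10, adjusted p = 0.0713), SHP2 (-0.13 ± 0.10, adjusted p = 0.234) and STK (0.09 ± 0.10, adjusted p = 0.409) did not pass the test in clf-29 relative to Col. The same was true in brm-1 clf-29 relative to Col, where the 3 values were 0.13, 0.01 and -0.16 (adjusted p = 0.261, 0.927 and 0.152). The signs of these 6 values turned with the scaling. With median-of-ratios factors and with scaling on genes outside all regions, SHP1, SHP2 and STK were the members called. They were called higher than Col in both clf-29 and brm-1 clf-29, and AG was not called.

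The comparison of brm-1 clf-29 with brm-1 asks for the effect of clf-29 between libraries with like backgrounds. AG was lower in brm-1 clf-29 by a log2 change of -0.81 ± 0.11 (adjusted p = 5.44e-06), and it stayed lower and called with every scaling and without any single library (-1.04 to -0.63). SHP2 (-0.32 ± 0.10, adjusted p = 0.0220) and STK (-0.32 ± 0.10, adjusted p = 0.0168) were also lower, and SHP1 did not pass the test (-0.23 ± 0.10, adjusted p = 0.130). Of all tested genes, 8.84% were called lower and 10.1% higher in this comparison, and the median change was 0.08. The calls at SHP2 and STK were lost with median-of-ratios size factors, when genes outside all regions set the scale, and without brm-1 replicate 2 or brm-1 clf-29 replicate 1, each of which left AG as the 1 member called. Without brm-1 clf-29 replicate 2, AG and STK were called, and with the background subtracted, AG and SHP2.

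In brm-1, 3 members had slightly higher levels than in Col: AG (0.30 ± 0.11, adjusted p = 0.0287), SHP1 (0.36 ± 0.10, adjusted p = 0.00771) and SHP2 (0.33 ± 0.10, adjusted p = 0.0103). STK changed by 0.17 ± 0.10 (adjusted p = 0.139). On the RPM scale none reached 2-fold. Of all tested genes 9.59% were called higher and 41.7% lower, that is 3076 and 13368 genes, which became 637 and 17094 with scaling on the genes marked in Col and 11181 and 1063 with scaling on genes outside all regions. The size of the change at the 3 genes was close to the median of 0.24 over the 10337 genes that overlapped a region of any genotype. The study used AG as a control locus for ChIP-qPCR on independent samples and reported no marked change of H3K27me3 there in brm-1. No member was called in brm-1 when libraries were scaled on the genes marked in Col or when its background was subtracted from each library, which turned AG to -0.028, and STK was -0.073 and -0.16 in these settings. None was called without brm-1 replicate 2 or without Col replicate 1. Without Col replicate 2 only SHP1 was called, and without brm-1 replicate 1 all 4 were called.

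The effect of losing BRM where CLF was already lost is given by the comparison of both clf-29 genotypes. In brm-1 clf-29 relative to clf-29, limma called 0 members, limma-voom also called 0, and 1 member (STK, -0.25 ± 0.10) had an unadjusted p under 0.05. STK had 41.4 and 51.5 RPM per kb in brm-1 clf-29 and 50.6 and 59.2 in clf-29, and a fit with the replicate number as a block called it (adjusted p = 0.0237). The changes at AG (-0.01), SHP1 (-0.09) and SHP2 (0.14) had adjusted p-values of 0.663 to 0.987. Of all tested genes 0.571% were called higher and 0.231% lower. The difference between the effects of brm-1 with and without CLF was negative at all 4 genes, except that SHP2 was 0.067 with scaling on the genes marked in Col, and AG 0.052 and SHP2 0.15 with the background subtracted. It passed the test at SHP1 (-0.44 ± 0.14, adjusted p = 0.0484), against 2.59% of genes called with a negative and 7.63% with a positive difference, and missed it at STK (-0.41 ± 0.14, adjusted p = 0.0515), AG (-0.31 ± 0.16, adjusted p = 0.161) and SHP2 (-0.18 ± 0.14, adjusted p = 0.341). The median difference over the 10337 marked genes was -0.22. The SHP1 call was lost with scaling on the genes marked in Col (-0.19, adjusted p = 0.345), with the background subtracted, and without any 1 of 6 libraries, both Col libraries among them.

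The extent of the mark also differed between the genotypes. The domain over AG, as the region found in both replicates, covered 9800 bp in brm-1, 5800 bp in clf-29, 5600 bp in brm-1 clf-29 and 10200 bp in Col. It reached 3855 bp upstream of the transcript start in brm-1, 455 bp in both genotypes with clf-29, and 4055 bp in Col. With gaps of up to 200 bp the reach in Col was 1655 bp and the others were as before. At its 3′ side it stopped 339 bp and 539 bp short of the gene end in clf-29 and in the double mutant, but passed it by 261 bp in brm-1 and 461 bp in Col. The domain of SHP2 was 6000 bp in brm-1, 3000 bp in each genotype with clf-29, and 6400 bp in Col. It began 2313 bp upstream in brm-1 and 2713 bp upstream in Col, but 87 bp inside the gene in both genotypes with clf-29. With libraries thinned to equal depth, or with gaps of up to 200 bp in place of 600 bp, the SHP2 domain in Col was 3600 bp and began 87 bp inside the gene, as in the genotypes with clf-29, while that of brm-1 still began 2313 bp upstream.

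At the 3′ side the domain of every member ended earlier in clf-29 than in Col. SHP2 stopped 213 bp short of its gene end in Col and 813 bp short in clf-29, and SHP1 917 bp and 1517 bp short. The domain of STK was 13000 bp in brm-1 and Col, 8600 bp in clf-29 and 7200 bp in brm-1 clf-29. It passed the 3′ end of the gene by 3974 bp in brm-1 and Col, and stopped 26 bp short of it in clf-29 and 1226 bp short in brm-1 clf-29, and it reached 4427 bp upstream in brm-1, 4027 bp in clf-29, 3827 bp in brm-1 clf-29 and 4427 bp in Col. With gaps of up to 200 bp the upstream reach in brm-1 clf-29 was 2027 bp, with the other genotypes as before, and the domain stopped 1826 bp short of the 3′ end in clf-29 and 2026 bp short in brm-1 clf-29, but passed it by 1774 bp in brm-1 and 2574 bp in Col. In thinned libraries brm-1 clf-29 stopped 226 bp short. The domain of SHP1 was short in every genotype, with 3800 bp in brm-1, 2800 bp in clf-29, 3000 bp in brm-1 clf-29 and 3400 bp in Col. As a share of the Col length, the domains in clf-29 were 56.9% at AG, 46.9% at SHP2, 66.2% at STK and 82.4% at SHP1. These extents are descriptions, and the shared regions of the whole genome also covered less in clf-29 (15.7 Mb) and brm-1 clf-29 (17.0 Mb) than in Col (19.9 Mb), with 21.8 Mb in brm-1.

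**Figure D2:**
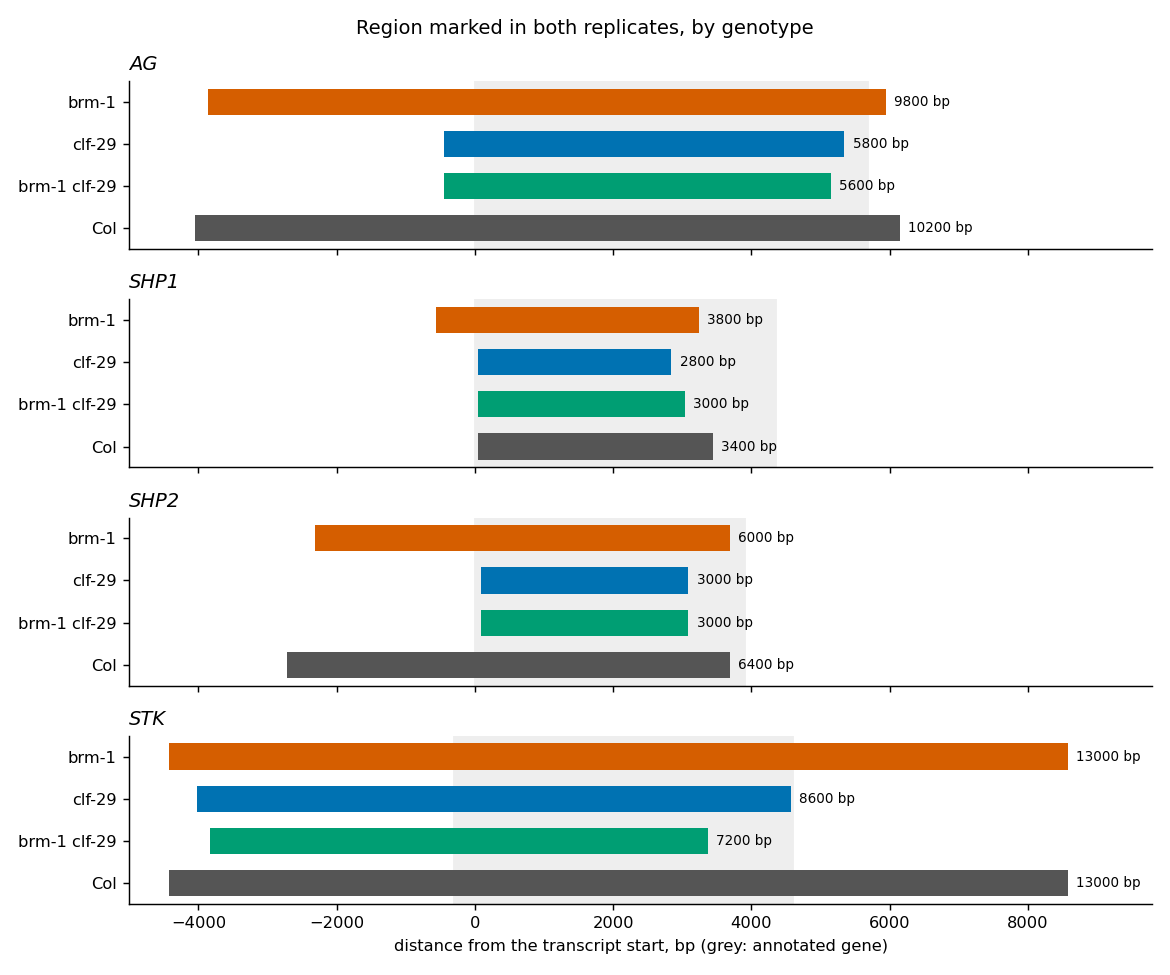
Enriched regions found in both replicates at each locus, one bar per genotype, with gaps up to 600 bp, by distance from the transcript start in bp with the gene shaded in grey. The bars of both genotypes with clf-29 end 455 bp upstream of AG, where those of brm-1 and Col reach 3855 and 4055 bp (1655 bp in Col with gaps up to 200 bp), and at STK they lack the 3′ part.

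The position of the loss was tested in 500 bp tiles over each gene and 2000 bp on either side, fitted with all 73667 tested tiles of the genome. Of 64 tiles at the 4 loci, 32 were called lower and 7 higher in clf-29 than in Col. In the genome 25.4% of tiles were lower and 18.5% higher. AG had 10 of 18 tiles lower and 0 higher, SHP2 8 of 16 lower and 0 higher, STK 9 of 19 lower and 5 higher, and SHP1 5 of 11 lower and 2 higher. The lower tiles of SHP1 were 3 without Col replicate 1, 0 without Col replicate 2 and 2 without clf-29 replicate 1, those of SHP2 were 5 without Col replicate 2, and the higher tiles of STK were 3 without clf-29 replicate 2. Most of the lower tiles lay toward the ends of the domains, and the higher ones in their cores. The lower tiles at chr3:21736001-21736500 (SHP1) and chr2:17825001-17826000 (SHP2) lay outside the Col domains. Genes outside all regions had a median change of -0.96 in clf-29 relative to Col. A fall at such tiles cannot be told apart from the higher background of Col. The tiles stop 2000 bp from the gene, so the outer upstream parts of the AG and STK domains were not tiled.

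Upstream of AG, the tile at chr4:10381501-10382000 had 0.770 and 1.42 RPM in clf-29 and 12.9 and 12.3 RPM in Col, a log2 change of -2.71 ± 0.36 (adjusted p = 2.27e-06). It had 2.03 and 6.39 RPM in brm-1 clf-29, against 19.7 and 26.3 RPM in brm-1. The telobox pair printed above lies in this tile. The 300 bp window itself had 1 and 0 reads in clf-29 (0.385 and 0 RPM), 3 and 7 reads in brm-1 clf-29, 42 and 45 reads in brm-1, and 28 and 27 reads in Col. Both clf-29 values were below that of the clf-29 input (1.85 RPM, 7 reads), and counts this low do not show that the mark was absent.

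Over AG itself, none of the tiles from chr4:10383001 to 10385500, which hold intron 1 and the first part of intron 2, was called in clf-29. There the tile at chr4:10384001-10384500 had 23.5 and 26.0 RPM in clf-29 and 25.7 and 24.8 RPM in Col (-0.03 ± 0.17, adjusted p = 0.900). Toward the 3′ end, the 5 tiles from chr4:10386501 to 10389000 were all lower. The tile at chr4:10388001-10388500, over the last exons, had 10.8 and 7.58 RPM in clf-29 and 26.3 and 21.2 RPM in Col (-1.29 ± 0.25, adjusted p = 2.64e-04). In the same tile brm-1 clf-29 had 4.47 and 4.15 RPM and brm-1 15.9 and 15.8 RPM. On this scale the core of AG did not pass the test in clf-29 relative to Col, while tiles on both of its sides were lower. In brm-1 clf-29 the core was not spared. Relative to brm-1, its tiles from chr4:10383001 to 10384500 and that at chr4:10385001-10385500 were called lower (-0.79 to -0.59, adjusted p = 0.00143 to 0.0127). Relative to Col, the tile at chr4:10383501-10384000 was called lower (-0.48 ± 0.18, adjusted p = 0.0317).

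SHP2 was lower upstream and on its 3′ side. The 4 tiles from chr2:17818001 to 17820000 were all lower in clf-29, by log2 changes of -2.04 to -1.50. The tile at chr2:17819001-17819500 had 2.70 and 2.84 RPM in clf-29, 2.03 and 1.28 in the double mutant, 13.4 and 20.3 RPM in brm-1, and 14.2 and 12.9 RPM in Col. On the 3′ side 4 tiles were lower in clf-29, by log2 changes of -1.87 to -0.95. Those at chr2:17825001-17825500 and chr2:17825501-17826000 lay past the gene end and outside the shared Col domain. The lower tile at chr2:17823501-17824000, at the gene end, had 1.16 and 1.89 RPM in clf-29, 4.06 and 5.11 in the double mutant, 6.40 and 5.63 RPM in brm-1, and 7.11 and 9.27 RPM in Col (-1.87 ± 0.36 in clf-29 relative to Col, adjusted p = 1.79e-04). The pair of tiles over the printed SHP2 window did not pass the test. The tile at chr2:17820501-17821000, which holds its telobox, had 33.1 and 34.6 RPM in clf-29 and 30.9 and 29.1 RPM in Col (0.17 ± 0.17, adjusted p = 0.431), and the next had 35.8 and 33.1 RPM in clf-29 and 30.4 and 29.5 RPM in Col (0.20 ± 0.16, adjusted p = 0.317). The next gene upstream, HVA22F, which encodes a protein of the HVA22 family, had 21.6 ± 0.0427 RPM per kb in brm-1, 5.63 ± 3.36 in clf-29, 4.11 ± 0.0822 in brm-1 clf-29 and 23.9 ± 0.769 in Col. It was lower by a log2 change of -2.05 ± 0.29 in clf-29 relative to Col (adjusted p = 4.36e-06). PDF1, the epidermal gene downstream of SHP2, did not pass the test (0.13 ± 0.17, adjusted p = 0.522).

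Within the STK gene the mark was lower at the 3′ end in clf-29. On the RPM scale, but not with scaling on genes marked in Col, it was higher at the 5′ end. The 5 tiles from chr4:6239501 to 6242000, over intron 1, exon 1 and the upstream flank, were higher by log2 changes of 0.58 to 0.84. The tile at chr4:6240001-6240500, which holds the printed stretch, had 56.2 and 66.3 RPM in clf-29 and 36.9 and 37.8 RPM in Col (0.69 ± 0.15, adjusted p = 8.03e-04). The 9 tiles from chr4:6234001 to 6238500, over the 3′ part of the gene and its 3′ flank, were lower by log2 changes of -1.89 to -0.77. The tile at chr4:6237501-6238000, at the 3′ end of intron 2, had 3.08 and 6.16 RPM in clf-29 and 15.1 and 22.9 RPM in Col (-1.86 ± 0.29, adjusted p = 1.73e-05). AT4G09950, the gene at the 3′ end of STK, had 28.7 ± 0.998 RPM per kb in brm-1, 8.29 ± 1.81 in clf-29, 6.47 ± 0.646 in brm-1 clf-29 and 27.3 ± 0.248 in Col, a log2 change of -1.67 ± 0.19 in clf-29 relative to Col (adjusted p = 1.71e-07). The mark was also lower at AT4G09965, the next gene on the 5′ side, 3458 bp from STK and beyond its tiles. This gene lies over the upstream end of the Col domain. It had 26.2 ± 1.94 RPM per kb in brm-1, 5.98 ± 2.43 in clf-29, 7.85 ± 0.191 in brm-1 clf-29 and 24.3 ± 2.63 in Col.

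SHP1 gained at 1 place. The tile at chr3:21739001-21739500, with the end of intron 1, exon 2 and the start of intron 2, had 60.4 and 71.97 RPM in clf-29, 55.6 and 49.5 in the double mutant, 38.7 and 46.2 RPM in brm-1, and 30.9 and 32.5 RPM in Col. This was the highest tile of the clade in clf-29 and was higher by a log2 change of 1.03 ± 0.15 than in Col (adjusted p = 5.62e-06). The adjoining tile at chr3:21739501-21740000 was higher as well (0.63 ± 0.15, adjusted p = 0.00181), and it was also the 1 tile of the 64 called in brm-1 relative to Col (0.60 ± 0.15, adjusted p = 0.0226), where 3.32% of tiles of the genome were called higher and 2.65% lower. This call in brm-1 was lost without any 1 of the brm-1 or Col libraries and with scaling on the genes marked in Col. The 3 tiles from chr3:21740001 to 21741500, toward the 3′ end, were lower in clf-29 by log2 changes of -1.10 to -0.56.

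The number of tiles on either side depended on the scaling. With the TMM method over genes marked in Col, clf-29 had 1 tile higher at SHP1 and 0 at STK relative to Col, and 44 tiles lower at the 4 loci. With scaling on genes outside all regions, 16 tiles were higher and 9 lower, the lower ones at AG, SHP2 and STK, and with that scaling SHP1 had 0 lower tiles. The share of all genome tiles called with these scalings was not counted. Over all 32062 tested genes, the first called 3013 higher and 20379 lower in clf-29 relative to Col, and the second 8350 and 868. The tiles of brm-1 clf-29 relative to Col gave the same picture, with 0 higher and 12 lower at AG, 1 and 3 at SHP1, 0 and 9 at SHP2, and 2 and 10 at STK, where 20.4% of tiles of the genome were called higher and 23.4% lower. Without either Col library or brm-1 clf-29 replicate 2, 0 tiles of STK were called higher there. The lower tiles of SHP1 were then 1 without Col replicate 2, and those of SHP2 5 without Col replicate 1 or brm-1 clf-29 replicate 2.

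**Figure D3:**
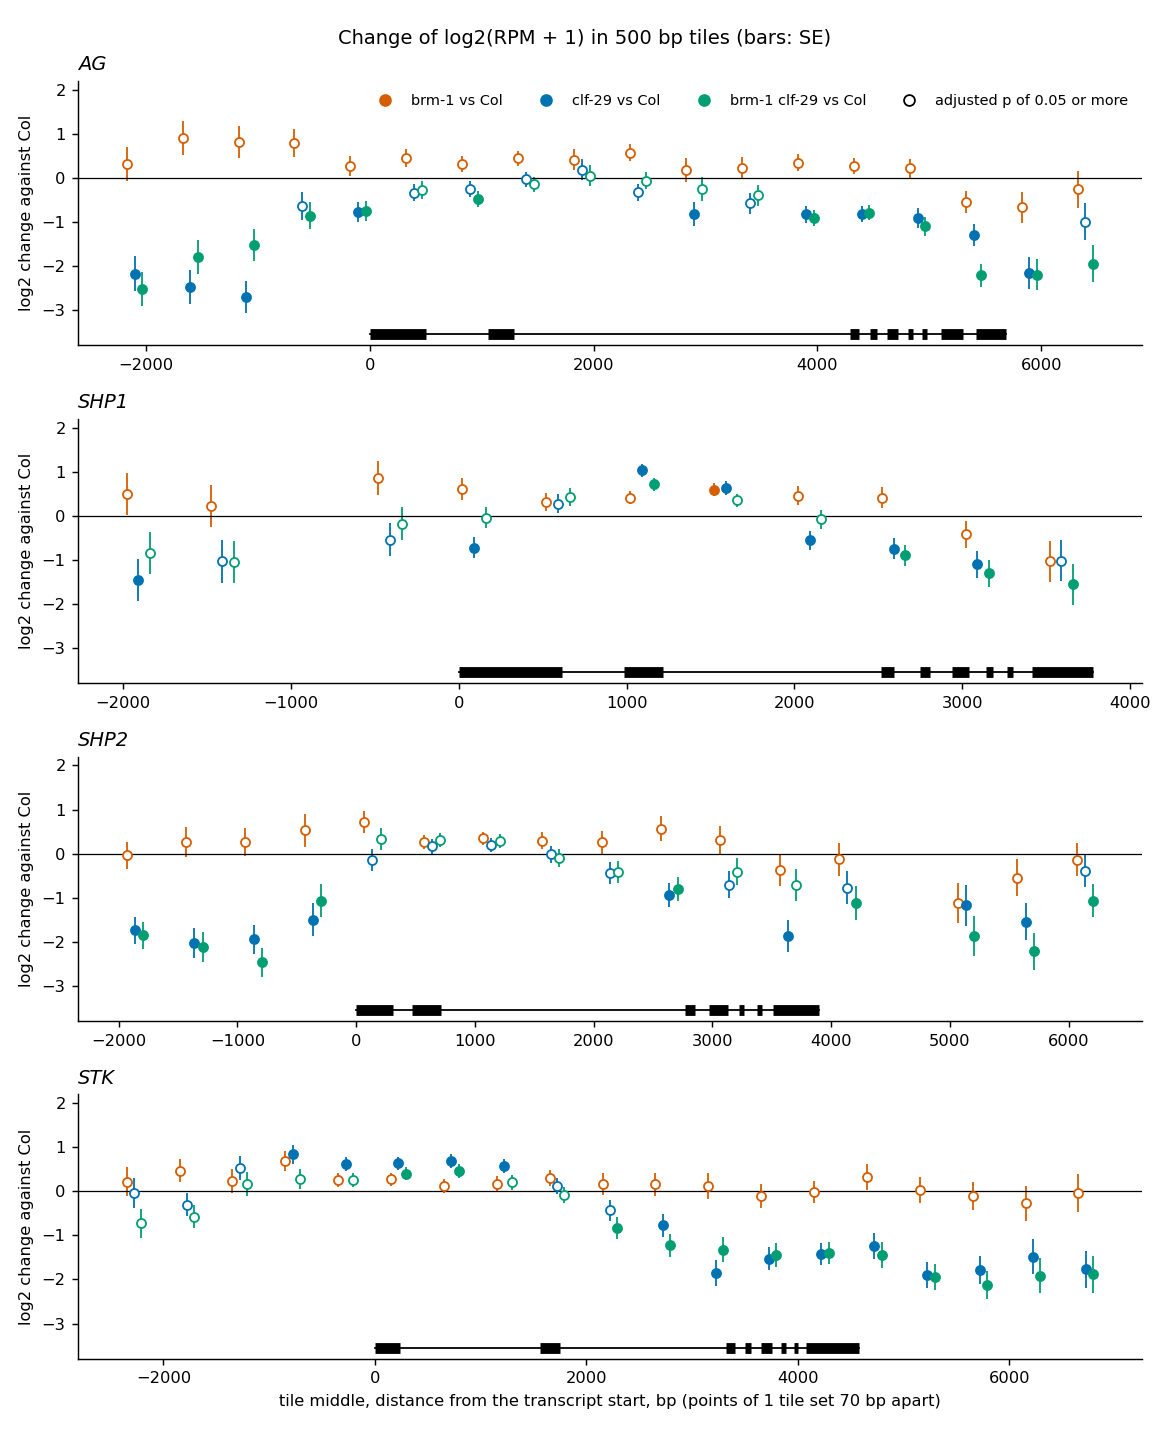
Change of log2(RPM + 1) of each tested 500 bp tile in each of the 3 mutants relative to Col, by distance of the tile middle from the transcript start in bp with exons below. Filled points passed the test, open points did not, and error bars are standard errors. In clf-29 the tiles reach -2.71 upstream of AG and -2.04 upstream of SHP2, and those of STK are higher at the 5′ end (0.58 to 0.84, 0 tiles when scaled on the genes marked in Col) and lower toward the 3′ end, while 1 tile is filled in brm-1 (0 with that scaling).

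Relative to brm-1, brm-1 clf-29 had 42 of the 64 tiles called lower and 0 higher, where the genome had 22.1% lower and 11.6% higher. AG had 16 of 18 lower, SHP1 6 of 11, SHP2 8 of 16 and STK 12 of 19. The count at SHP1 was 1 without brm-1 replicate 1, and 2 without brm-1 replicate 2 or without either library of brm-1 clf-29 or of Col. This comparison is between libraries of like background, and no tile of the 4 loci was called higher with any of the 3 other scalings tried, under which AG had 12 to 16, SHP1 2 to 7, SHP2 6 to 10 and STK 11 to 13 tiles lower. The share of all genome tiles with these scalings was not counted. Over all tested genes, TMM over genes marked in Col called 2701 higher and 3482 lower here, median-of-ratios 2499 and 2964, and genes outside all regions 2044 and 2535. Without brm-1 replicate 2, 1 tile of STK was called higher. The steepest losses were again outside the cores: -2.84 ± 0.39 at chr4:10380501-10381000 upstream of AG (adjusted p = 1.74e-05), -2.73 ± 0.33 at chr2:17819001-17819500 upstream of SHP2 (adjusted p = 5.72e-06), and -2.02 ± 0.32 at chr4:6235001-6235500 in the 3′ flank of STK (adjusted p = 6.33e-05). Without brm-1 clf-29 replicate 1, the 4 loci had 27 tiles called lower (11 at AG, 2 at SHP1, 6 at SHP2 and 8 at STK). In brm-1 clf-29 relative to clf-29, limma called 0 of the 64 tiles (2 at AG, 1 in each direction, with the replicate block), against 0.444% higher and 0.0950% lower in the genome, and 12 had an unadjusted p under 0.05. The difference between the effects of brm-1 with and without CLF was called in 0 tiles, here and in the whole genome (0%), with 10 of the 64 at an unadjusted p under 0.05, and with another scaling up to 33 of the 64 were called. That scaling, on genes outside all regions, gave 324 positive and 8207 negative calls among all 32062 tested genes.

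**Figure D4:**
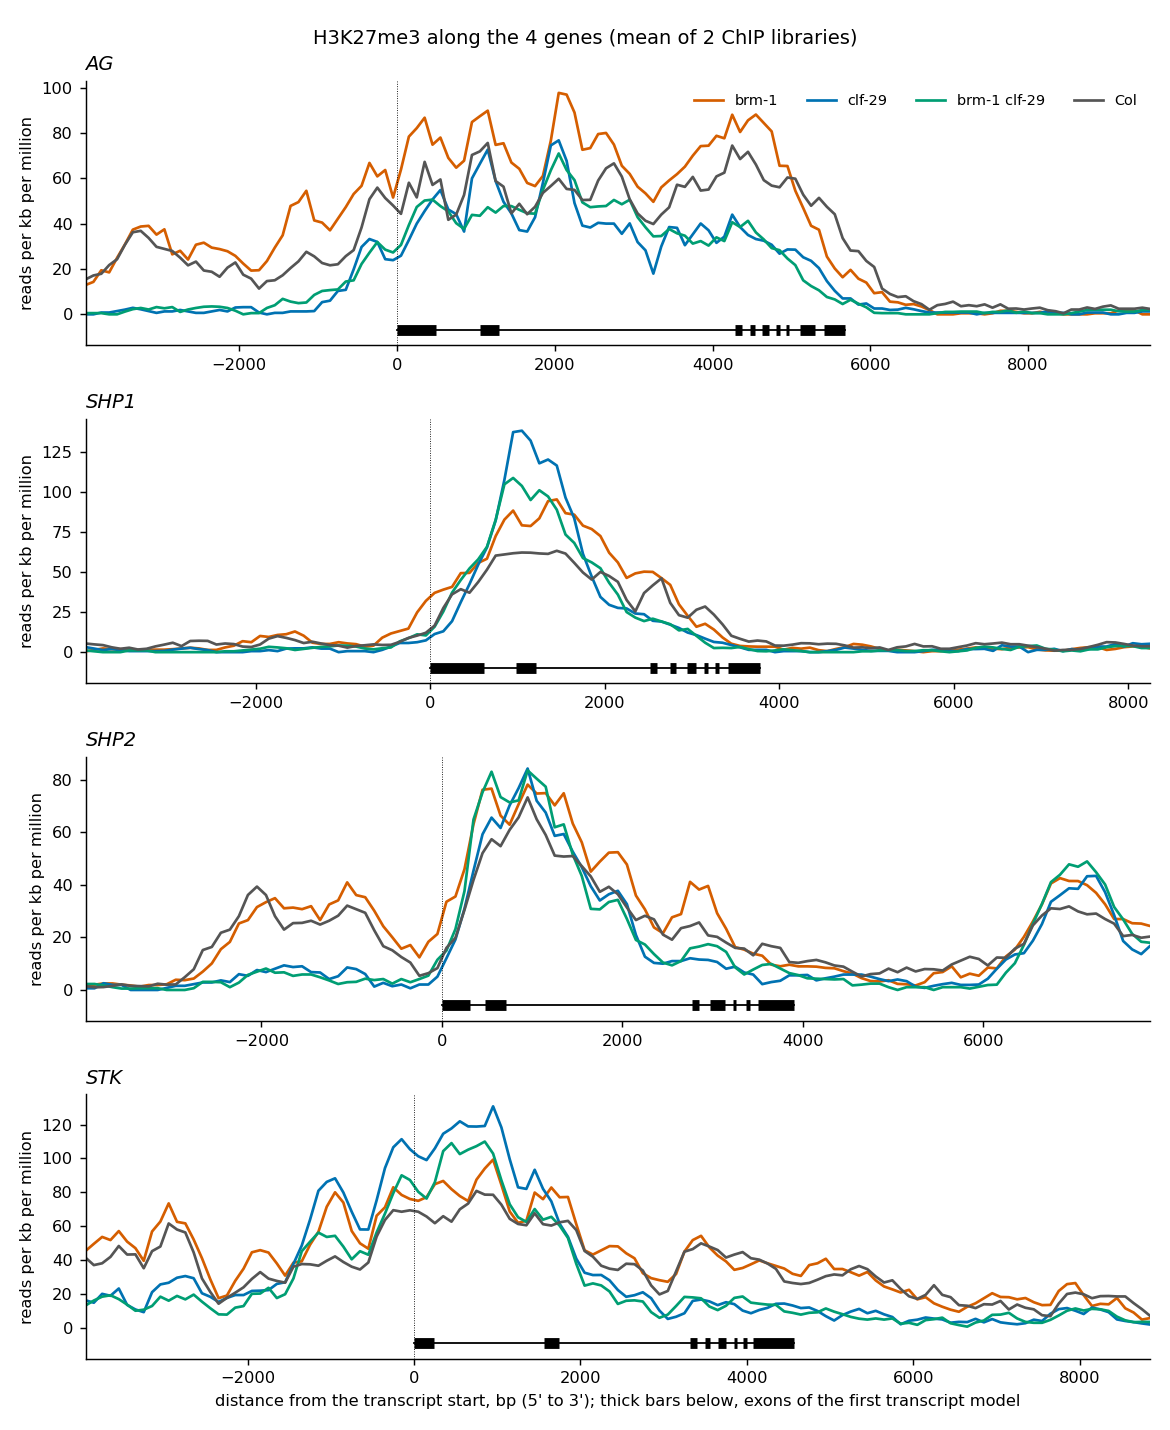
H3K27me3 in RPM per kb along each locus by distance from the transcript start in bp, as the mean of the 2 ChIP libraries of each genotype, with exons drawn under the curves. The densest window starts 630 to 1970 bp downstream of the transcript start in every genotype, and the curves of both genotypes with clf-29 lie below those of brm-1 and Col upstream of AG and SHP2 and at the 3′ end of STK.

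The same shift was seen in the share of the reads of a gene that fell in each of 5 equal parts of its length, a measure that no scaling of the libraries can move. With the parts numbered from the 5′ end, part 2 of SHP1 held 61.1% and 54.9% of its reads in clf-29, 52.0% and 46.3% in brm-1 clf-29, 39.3% and 38.5% in brm-1, and 35.9% and 34.7% in Col. All 4 libraries with clf-29 were above all 4 without it. Part 1 of STK held 40.6% and 39.6% in clf-29, 40.4% and 38.5% in brm-1 clf-29, 28.1% and 26.3% in brm-1, and 26.4% and 25.8% in Col. Part 5 of STK held 4.65% and 4.56% in clf-29, 5.20% and 5.81% in brm-1 clf-29, 14.6% and 11.8% in brm-1, and 15.7% and 13.9% in Col. In the inputs part 5 of STK held 17.0% to 20.9%, so the reads did not drop there without the antibody.

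At AG part 2, over exon 2 and the start of intron 2, held 26.2% and 29.5% in clf-29, 27.5% and 25.9% in brm-1 clf-29, 20.3% and 22.5% in brm-1, and 19.7% and 18.4% in Col. Part 5 of AG held 14.6% and 9.94% in clf-29, 8.81% and 9.18% in brm-1 clf-29, 14.6% and 15.4% in brm-1, and 20.2% and 17.6% in Col, with clf-29 replicate 1 level with brm-1. Part 4 of SHP2 held 7.48% and 6.41% in clf-29, 8.72% and 7.26% in brm-1 clf-29, 15.9% and 13.5% in brm-1, and 13.6% and 11.5% in Col. Part 2 of SHP2 was less even, with 51.02% and 38.4% in clf-29 against 35.6% and 33.4% in Col. In part 2 of SHP1 both brm-1 shares lay above both of Col, and in part 1 of STK the brm-1 and Col shares overlapped. In part 5 of AG brm-1 lay below both Col libraries.

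**Figure D5:**
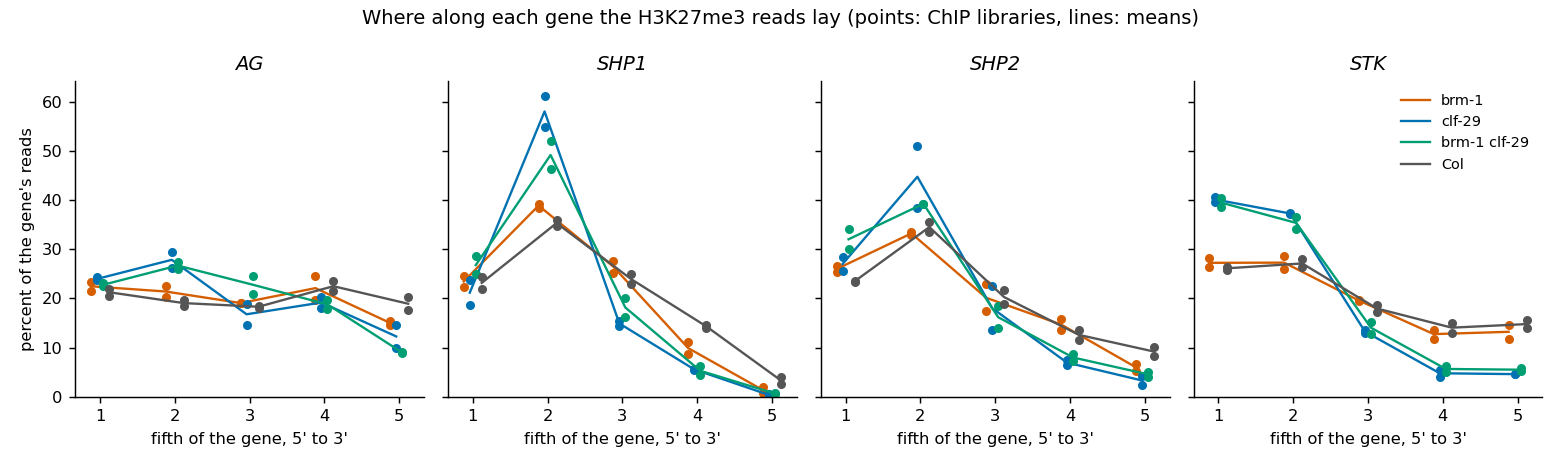
Percent of the reads of each gene in each of 5 equal parts of its length from the 5′ end, per ChIP library, with lines for the genotype means. The libraries of both genotypes with clf-29 run together, above brm-1 and Col in part 2 of SHP1 (46.3% to 61.1%) and part 1 of STK (38.5% to 40.6%), and below them in part 5 of STK (4.56% to 5.81%).

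By gene element, the highest density of the clade was in intron 1 of STK, with 110 ± 12.9 RPM per kb in clf-29, 91.3 ± 15.03 in brm-1 clf-29, 80.0 ± 12.9 in brm-1 and 69.1 ± 1.32 in Col. Its 1000 bp 3′ flank had 8.66 ± 3.54 in clf-29, 7.73 ± 0.548 in brm-1 clf-29, 34.6 ± 2.195 in brm-1 and 31.5 ± 1.48 in Col. The 5′ flank of AG had 19.5 ± 5.85 in clf-29, 19.8 ± 8.53 in brm-1 clf-29, 51.7 ± 8.65 in brm-1 and 35.6 ± 1.18 in Col. In this flank brm-1 was above Col in both libraries, and the genotypes with clf-29 were below Col. The second intron of AG, known to carry its regulatory elements, had 41.6 ± 10.9 in clf-29, 44.6 ± 10.4 in brm-1 clf-29, 69.96 ± 9.48 in brm-1 and 53.2 ± 3.38 in Col. The second intron of SHP1 had 60.7 ± 7.46 in clf-29, 55.6 ± 2.10 in brm-1 clf-29, 72.1 ± 6.85 in brm-1 and 47.3 ± 2.62 RPM per kb in Col (SD, n = 2 throughout). In both introns brm-1 was above Col and brm-1 clf-29 below brm-1. On the RPM scale the means of the genotypes with clf-29 were below Col at AG and above it at SHP1. At AG brm-1 clf-29 overlapped Col, with 37.2 and 51.96 RPM per kb against 55.6 and 50.8.

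The genes that act with the clade were examined in 3 lists of known function, with levels given in RPM over the whole gene. Among the 12 partners, the MADS genes of the other floral organ identity classes with AP2, 11 overlapped a region in Col. Relative to Col, 7 were called higher and 3 lower in clf-29 (median 0.59, against -0.74 over all tested genes and 0.26 over the genes that overlapped a region of any genotype). Of all tested genes 14.1% were called higher and 41.1% lower, and of the genes with a region 43.2% and 21.1%. AP1, which specifies sepals and petals and floral meristems, had 600 and 714 RPM in clf-29 and 278 and 276 RPM in Col, a log2 change of 1.24 ± 0.07 (adjusted p = 9.67e-12). SEP1, a partner of AG in organ identity, was also higher (1.09 ± 0.09, adjusted p = 6.70e-10). AGL6 was lower, with 70.1 and 59.7 RPM in clf-29 and 100.4 and 104 RPM in Col (-0.65 ± 0.12, adjusted p = 1.61e-04, but 0.12 with median-of-ratios factors and 0.34 with scaling on genes outside all regions). AP2, a repressor of AG, overlapped no region in any genotype and had 2.31 and 1.89 RPM in clf-29 and 5.47 and 5.96 RPM in Col (-1.12 ± 0.47, adjusted p = 0.0467, and -0.33 with an adjusted p of 0.684 when genes outside all regions set the scale).

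Of the 14 upstream regulators of AG, of which 8 overlapped a Col region, 8 were called higher and 5 lower in clf-29 relative to Col (median 0.53). LFY, the activator of AG, had 259 and 280 RPM in clf-29 and 109 and 109 RPM in Col (1.29 ± 0.08, adjusted p = 4.68e-11). SVP, a flowering repressor that also helps to keep AG off in early floral meristems, had no Col region and was higher in all 3 mutants, with 86.0 and 96.9 RPM in brm-1, 80.5 and 114 RPM in clf-29, 261 and 294 in the double mutant, and 23.0 and 19.5 RPM in Col. Unlike the members of the clade, SVP was higher in brm-1 clf-29 than in clf-29 (1.52 ± 0.14, adjusted p = 6.14e-07). The co-repressors LUG (-1.38 ± 0.35, adjusted p = 0.00275) and SEU (-1.21 ± 0.40, adjusted p = 0.0163) had the largest falls and overlapped no region in any genotype. With scaling on genes outside all regions they were -0.47 and -0.33 and not called.

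Of the 14 regulators of carpel, ovule and fruit development, of which 11 overlapped a Col region, 10 were called higher and 1 lower in clf-29 relative to Col (median 0.92). KNU, a repressor of the stem cell gene WUS that AG activates, had 138 and 119 RPM in clf-29 and 56.1 and 48.4 RPM in Col (1.28 ± 0.12, adjusted p = 1.01e-08). HEC1, a bHLH gene of the transmitting tract, was higher by 1.33 ± 0.18 (adjusted p = 1.60e-06). The lower gene was NUB, which acts in stamen and carpel growth (-0.43 ± 0.12, adjusted p = 0.00567, but 0.34 with median-of-ratios factors and 0.56 with scaling on genes outside all regions). In brm-1 clf-29 relative to Col the counts were 7 higher and 3 lower among the partners, 8 and 6 among the upstream regulators, and 11 and 2 among the carpel and fruit genes, with medians of 0.46, 0.56 and 0.80 (against -0.82 over all tested genes and 0.30 over those with a region). In that comparison 15.0% of all tested genes were called higher and 47.6% lower, and 44.9% and 20.2% of the genes with a region.

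In the comparison of brm-1 clf-29 with brm-1, AP1 (0.70 ± 0.07, adjusted p = 1.36e-07), LFY (0.86 ± 0.08, adjusted p = 9.38e-08), KNU (1.04 ± 0.12, adjusted p = 8.71e-07) and HEC1 (1.55 ± 0.18, adjusted p = 6.03e-07) were higher. AGL6 (-1.14 ± 0.12, adjusted p = 2.74e-07), SEP4 (-0.92 ± 0.13, adjusted p = 8.24e-06) and NUB (-0.69 ± 0.12, adjusted p = 1.29e-04) were lower. The counts were 6 higher and 4 lower among the partners, 7 and 0 among the upstream regulators and 8 and 1 among the carpel and fruit genes (medians 0.26, 0.45 and 0.55, against 0.08 over all tested genes and 0.13 over those with a region, of which 29.7% were called higher and 21.2% lower), beside 0 higher and 3 lower in the AG clade. In brm-1 clf-29 relative to clf-29, BEL1, an ovule identity gene, was the 1 carpel and fruit gene called (1.28 ± 0.18, adjusted p = 2.82e-04), with 2 upstream regulators (SVP and AGL24) and 0 partners. The AGL24 call was lost with 3 of 4 other scalings (adjusted p = 0.0590 to 0.380).

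In brm-1 relative to Col, 6 partners were called higher and 1 lower, 5 upstream regulators higher and 6 lower, and 10 carpel and fruit genes higher and 2 lower (medians 0.19, 0.12 and 0.30, against -0.75 over all tested genes and 0.24 over those that overlapped a region). Of all tested genes 9.59% were called higher and 41.7% lower, and of the genes with a region 29.4% and 3.02%. The largest increases were at SVP (2.06 ± 0.14, adjusted p = 3.66e-09), BEL1 (1.17 ± 0.18, adjusted p = 2.10e-04) and AGL24 (0.94 ± 0.09, adjusted p = 6.12e-07), which like SVP encodes a MADS protein of the flowering transition. Scaling on the genes marked in Col left 0 partners, 4 upstream regulators and 1 carpel and fruit gene higher, and scaling on genes outside all regions made this 11, 8 and 12. For clf-29 relative to Col the same scalings gave 6 higher and 5 lower, and 9 and 0, among the partners, 6 and 6, and 8 and 0, among the upstream regulators, and 9 and 3, and 10 and 0, among the carpel and fruit genes.

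Likeness of pattern was measured as the Pearson correlation of log2(RPM + 1) over the 8 ChIP libraries among 3737 well-covered marked genes, as a description that includes what the libraries share in depth and background. The genes most like AG were AT1G52695 (r = 0.995), AT2G18590 (0.980) and MEE15 (0.975). Most like SHP2 were GATA29 (0.965), PHO1 (0.951) and FT (0.930). Most like STK were AGL19 (0.929), AT5G17700 (0.914) and AT1G59790 (0.911), and most like SHP1 were AT5G06015 (0.953), AT4G07160 (0.948) and AT5G01685 (0.943). Between members the values were 0.795 for AG and SHP2, 0.690 for SHP1 and STK, 0.677 for AG and STK, 0.656 for SHP1 and SHP2, 0.422 for AG and SHP1 and 0.419 for SHP2 and STK. The genes named above were picked as the highest of 3737, so their values cannot be compared with those between members.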

How the data were processed

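The authors mapped H3K27me3 ChIP-seq and input reads to TAIR10 with Bowtie 0.12.7 and called islands with SICER 1.1, as given in the submitters' processing notes, and deposited the positions of uniquely and perfectly mapped reads of 51 bp (unit: other, mapped read positions, not normalized). Counts, regions and levels were computed here.

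Reads with the same position and strand were counted as 1, and 5′ ends were moved 75 bp. Genes (RefSeq TAIR10.1, those under 1000 bp widened) and 500 bp tiles were counted without strand, scaled to RPM over kept reads and taken as log2(RPM + 1). Features that reached 10 reads in 2 or more of the ChIP libraries entered 1 limma-trend fit of all 8 ChIP libraries (limma 3.58.1, R 4.3.3), with Benjamini-Hochberg adjustment over all features and a threshold of 0.05. The values were thus tested with limma, as the unit needs. Regions were joined from 200 bp windows over input with gaps up to 600 bp at an adjusted p of 0.01, and kept where both replicates had them. Scripts used Python 3.11.15 and were tested on simulated data.

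The 4 members were set by clade, and named list genes are the 2 largest called changes in each direction per list. The members and lists were chosen with earlier results of these data known. Replicate numbers were not taken to pair libraries, since replicate differences of Col and the mutants correlated at 0.00812 to 0.0571 (0.239 to 0.273 between mutants, with 2 replicates each and nothing in the labels that ties the numbers). Alternatives covered scaling, read filters, pseudocount, tile width, region settings, limma-voom and leaving out each library.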

Additional observations from a re-analysis of the deposited data

Results flagged for a closer look

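The effect of brm-1 differed between plants with and without CLF, by the limma interaction term, at 1 member and at genes of every list. The difference was called negative at 4 of 12 partners, 5 of 14 upstream regulators and 5 of 14 carpel and fruit genes. It was called positive at 1 upstream regulator. Among genes with a region, 8.03% were called negative and 0.464% positive. The list genes named here are the largest, up to 2 per direction and list. Negative differences were found at SHP1 (-0.44, adjusted p = 0.0484), the fruit gene FUL (-0.55, adjusted p = 0.0176), AP1 (-0.54, adjusted p = 0.0104), the homeodomain gene BLR (-0.63, adjusted p = 0.00460), the petal gene RBE (-0.62, adjusted p = 0.0312), the boundary gene SUP (-0.55, adjusted p = 0.0302) and the sporogenesis gene SPL (-0.49, adjusted p = 0.0263). LUG, which overlapped no region, had a positive difference (2.06, adjusted p = 0.0240). In the same term 7.63% of tested genes were called positive and 2.59% negative. With scaling on the genes marked in Col the whole genome gave 6867 positive and 77 negative calls, and with scaling on genes outside all regions 324 positive and 8207 negative calls. In that first setting the calls at SHP1, FUL, AP1, RBE, SUP and SPL were lost (adjusted p = 0.0622 to 0.345), and with genes outside all regions that at LUG was lost (adjusted p = 0.0672). BLR was called with all 4 other scalings. Without single libraries the whole genome gave few calls in this term, with 0 positive and 2 negative without brm-1 replicate 2, 0 and 3 without brm-1 clf-29 replicate 1, 34 and 20 without brm-1 clf-29 replicate 2, 14 and 20 without Col replicate 1, and 6 and 15 without Col replicate 2.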

How the results depend on the processing

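Each library was left out in turn, and 2 libraries per genotype limit the precision of every test. RPM cannot show a change in the total amount of the mark, and the higher background in Col is confounded with genotype, so mutant and Col levels depend on the scaling. No alternative changed the direction of AG in brm-1 clf-29 relative to brm-1.

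The members called in brm-1 relative to Col, 3 as reported, were 0 with TMM over genes marked in Col and 0 with the background taken off. In each genotype with clf-29 relative to Col, 1 as reported, they were 3 in each comparison with TMM over genes marked in Col, with median-of-ratios size factors and with scaling on genes outside all regions, and 2 with TMM over all tested genes and with the background taken off. These counts differ in direction. The called members were lower with TMM over genes marked in Col and with the background taken off, and higher in the other 3 settings. In clf-29, TMM over genes marked in Col called 3013 of all 32062 tested genes higher and 20379 lower. Scaling on genes outside all regions called 8350 higher and 868 lower. In brm-1 clf-29 relative to brm-1, 3 as reported, they were 1 with median-of-ratios and 1 with genes outside all regions. For the interaction, 1 as reported, they were 0 with TMM over genes marked in Col, the background taken off, a pseudocount of 0.25 and, added after seeing the data, only genes marked in any genotype; 2 with all deposited reads, a pseudocount of 4, no filter, 500 bp added on each side and limma-voom; and 4 with TMM over all tested genes, median-of-ratios and genes outside all regions. Leaving out 1 library gave 0 to 4, 1 to 2, 1 to 2, 1 to 3, 0 to 0 and 0 to 3 members called in the 6 comparisons (brm-1, clf-29 and the double mutant relative to Col, brm-1 clf-29 relative to brm-1 and to clf-29, and the interaction).

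A replicate block, although the numbers were not taken to mark pairs, gave 2 members in clf-29 and 2 in brm-1 clf-29 relative to Col, 1 in brm-1 clf-29 relative to clf-29 and 3 for the interaction. Over all 32062 tested genes the block also raised the counts. It called 4771 higher and 14525 lower in clf-29, and 5078 and 16213 in brm-1 clf-29, relative to Col. In brm-1 clf-29 relative to clf-29 it called 387 and 292 (183 and 74 as reported). For the interaction it called 5021 positive and 1820 negative (2447 and 831 as reported). The block gave 6 called tiles in brm-1 relative to Col, 2 in brm-1 clf-29 relative to clf-29 and 3 for the interaction. The share of all genome tiles called with the block was not counted. Replicate differences of the mutants correlated with each other at 0.239 to 0.273 over 8744 genes.

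Signs that turned were as follows. With TMM over genes marked in Col, SHP1 was -0.14 and STK -0.27 in clf-29, SHP1 -0.22 and SHP2 -0.34 in brm-1 clf-29, and STK -0.073 in brm-1, all relative to Col, and the SHP2 interaction was 0.067. With the background taken off, AG was -0.028 and STK -0.16 in brm-1, SHP1 -0.32 and STK -0.47 in clf-29, SHP1 -0.37 and SHP2 -0.49 in brm-1 clf-29, all relative to Col, AG was 0.024 in brm-1 clf-29 relative to clf-29, and the interaction was 0.052 at AG and 0.15 at SHP2. Relative to Col, in clf-29 and then in the double mutant, AG was 0.27 and 0.34 with median-of-ratios and 0.50 and 0.59 with genes outside all regions. SHP2 in clf-29 relative to Col was 0.17 with TMM over all tested genes, 0.64 with median-of-ratios and 0.86 with genes outside all regions, and STK in brm-1 clf-29 relative to Col was 0.24, 0.70 and 0.95 in these settings. In brm-1 clf-29 relative to clf-29, AG was 0.074 with TMM over all tested genes, 0.071 with median-of-ratios, 0.096 with genes outside all regions and 0.040 with limma-voom, and SHP1 was 0.021 with genes outside all regions. SHP2 in brm-1 clf-29 relative to Col was -0.037 with all deposited reads and -0.043 with 500 bp on each side. Leaving out 1 library also turned signs: the range was -0.20 to 0.17 at AG and -0.27 to 0.091 at SHP1 in brm-1 clf-29 relative to clf-29, -0.031 to 0.051 at SHP2 and -0.31 to 0.0027 at STK in brm-1 clf-29 relative to Col, and -0.023 to 0.20 at STK in clf-29 relative to Col. The turns came without clf-29 replicate 2 (AG, SHP1, and STK in clf-29) or without brm-1 clf-29 replicate 1 (AG, SHP2, and STK in brm-1 clf-29).

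Of the called tiles at the 4 loci, brm-1 relative to Col had 4 with tiles of 1000 bp, 0 with TMM over genes marked in Col and, added after seeing the data, 51 with genes outside all regions and 49 with median-of-ratios. The share of all genome tiles called was not counted with these or any other alternative settings. Over all 32062 tested genes, scaling on genes outside all regions called 11181 higher and 1063 lower in brm-1. Median-of-ratios called 10318 higher and 2307 lower. In clf-29 relative to Col there were 25 with genes outside all regions, and in brm-1 clf-29 relative to brm-1 24 with tiles of 1000 bp. The interaction had 1 with tiles of 1000 bp, 33 with genes outside all regions and 29 with median-of-ratios. For this term, genes outside all regions gave 324 positive and 8207 negative calls over all tested genes. Median-of-ratios gave 596 positive and 7346 negative. Leaving out 1 library gave 0 to 4, 28 to 40, 26 to 39, 27 to 45, 0 to 2 and 0 to 0 called tiles in the 6 comparisons.

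With gaps up to 200 bp the domain was 7800 bp at AG in Col, 2000 bp in clf-29 and 3600 bp in Col at SHP2, and 10800 bp in brm-1, 6800 bp in clf-29, 4600 bp in brm-1 clf-29 and 11600 bp in Col at STK. In libraries thinned to the smallest, chosen after seeing the data, it was 3600 bp at SHP1 in brm-1, 3600 bp at SHP2 in Col and 8400 bp at STK in brm-1 clf-29. The stricter region threshold moved none of them. With all deposited reads, enrichment over input was 7.84 in brm-1 and 7.22 in Col at AG, 5.43 in brm-1, 5.62 in brm-1 clf-29 and 3.93 in Col at SHP1, 5.04 in brm-1, 4.17 in clf-29, 4.31 in brm-1 clf-29 and 4.51 in Col at SHP2, and 7.33 in brm-1, 7.497 in clf-29, 7.03 in brm-1 clf-29 and 5.94 in Col at STK. The cause of these changes was not tested.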
